A study of Apis mellifera with 2 samples.

Results

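Ip3k and Pkc are 2 honey bee genes of phospholipid signalling, described here in hemocytes, the blood cells of the insect body cavity. They were picked as RefSeq symbols from genes that stood far higher in the adult than in the larval library, so that difference is a description with no test. All their coding sequences were found by protein identifier: 5 for Ip3k (gene 409943) and 3 for Pkc (gene 406106), that is 8 of 23471 coding sequences and 2 of 9935 genes. The series set out to chart the surface molecules of Apis mellifera hemocytes. The adult library came from bees less than 1 day old, emerged at 34 °C from sealed combs of A. mellifera carnica and collected at intervals of 24 h. The larval one was made from 8-day-old worker larvae of the fifth instar. Each library is polyadenylated RNA from the hemocyte pellet of 320 µL of hemolymph, and the number of animals behind each pellet is not stated in the labels.

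As background, a phospholipase C at the membrane splits a phosphoinositide lipid into inositol trisphosphate and diacylglycerol. Inositol trisphosphate opens calcium stores inside the cell, and inositol trisphosphate kinase, the product of Ip3k, adds a further phosphate and so takes that messenger away. Diacylglycerol, for conventional isoforms together with calcium, switches on protein kinase C, the product of Pkc, which phosphorylates proteins on serine and threonine. In Drosophila photoreceptors, a phospholipase C and an eye protein kinase C act in the response to light. In insect blood cells, calcium and protein kinase C have been tied to spreading and phagocytosis.

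The libraries held 16880780 (adult) and 17657461 (larva) estimated counts, and 9383 and 9245 genes had at least 1 count. Levels are given as CPM, counts scaled to a common library total after TMM scaling, or as the authors' TPM, which also divides by length. Each stage has 1 library, so there is no replicate check and no p-value is given. The 95% intervals are exact, cover counting error only, and compare these libraries, not the stages. PCR copies are not independent molecules, so even that error may be larger. Fewer cells of a type and less RNA per cell cannot be told apart in such bulk samples. A difference met the size rule at 4-fold or more, the whole interval lying at 4-fold or beyond, and a level of 10 CPM or more on the higher side. Of 8798 genes whose counts summed to 10 or more, 276 met it as higher in adult hemocytes (3.14%) and 239 as higher in larval hemocytes (2.72%). The split was 413 against 160 with plain totals and 560 against 142 with TPM. The median log2 fold over these genes was 0.02 with TMM, 0.37 with plain totals and 0.55 with TPM.

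Ip3k had 25866 counts in the adult library, against 1966 in the larval library. That is 1358 CPM (1341 to 1374) in adult and 126 CPM (120.2 to 131) in larval hemocytes, a 10.8-fold difference (10.3 to 11.3, log2 fold 3.43). Per length, Ip3k stood at 835 TPM in the adult library and 57.7 TPM in the larval library. It took 0.153% of all adult counts and 0.0111% of all larval counts. By CPM it was gene 51 of 9935 in the adult library and gene 1531 in the larval one. By TPM its ranks were 207 in adult and 2113 in larval hemocytes.

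Pkc had 11820 counts in the adult library, against 1001 in the larval library. Its level was 620.4 CPM (609 to 632) in adult and 64.0 CPM (60.1 to 68.1) in larval hemocytes, 9.69-fold higher (9.09 to 10.4, log2 fold 3.28). Per length this was 306 TPM in adult and 20.2 TPM in larval hemocytes. Pkc ranked 145 by CPM in adult and 3157 in larval hemocytes, and 527 and 4175 by TPM. Both genes met the size rule, as the choice of members fixes, and nothing is read from that against the 3.14% of all genes.

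On the TPM scale, Ip3k stood at 2.73 times the level of Pkc in the adult library and at 2.85 times in the larval library. Ip3k RNA was thus the more abundant of the pair per length in both libraries, and protein was not measured. The TPM folds were 14.5 for Ip3k and 15.1 for Pkc, while the CPM folds had Ip3k ahead. The CPM intervals overlap (10.3 to 11.3 for Ip3k and 9.09 to 10.4 for Pkc), and the TPM folds have no interval. Which gene differed more was therefore not settled. By log2 fold Ip3k was gene 245 and Pkc gene 281 of the 8798 compared, and 21 and 24 of the 315 compared genes with a symbol.

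Other abundant genes were set beside the members, by CPM, which is not corrected for length. Of the 145 genes whose adult CPM was at least that of Pkc, 20 (13.8%) met the size rule as higher in adult hemocytes and 4 as higher in larval hemocytes. Their median log2 fold was 0.15, and 10 of them, both members included, had a log2 fold at or above that of Pkc. Choosing genes by their adult level itself favours the adult side. Of these 145 genes, 15 had a symbol, and those that met the rule on the adult side were Ip3k, Pkc and Syt1, the vesicle fusion gene synaptotagmin 1. Coding length was also compared, since it differs between the members. Among 1572 genes whose longest coding sequence had 1500 to 2100 bases, 49 (3.12%) met the rule as higher in adult hemocytes, and 61 met it as higher in larval ones. The quartiles of their log2 folds were -0.72 and 0.75.

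**Figure D1:**
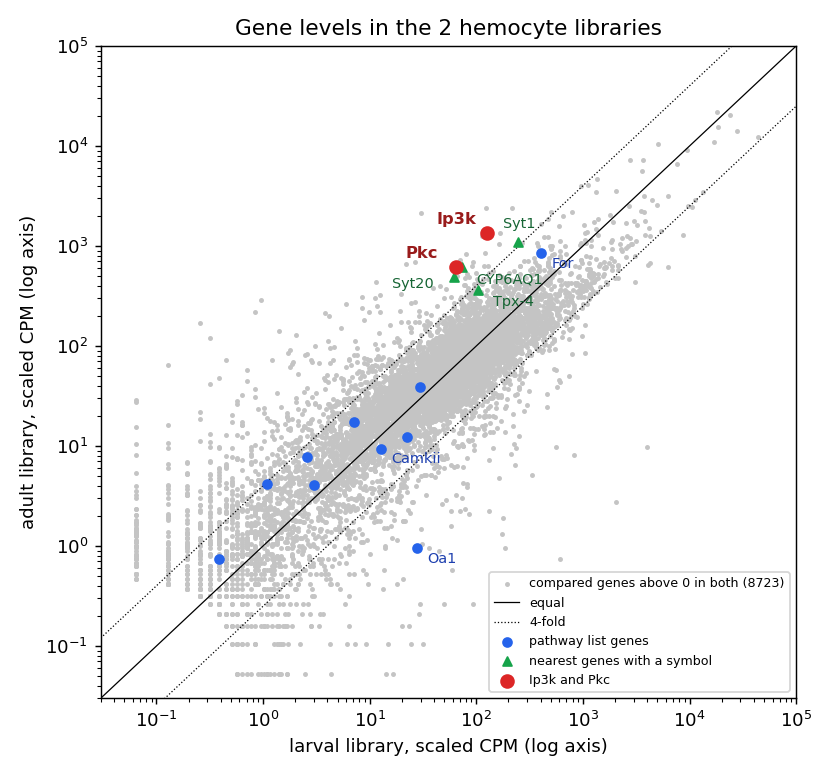
Scaled CPM of each gene in the adult library (vertical log axis) and the larval library (horizontal log axis), for the 8723 compared genes above 0 in both. Ip3k (1358 CPM in adult, 126 in larval hemocytes) and Pkc (620.4 and 64.0) lie above the dotted 4-fold line, and Oa1 lies below the lower one.

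Within Ip3k, reads fell on coding sequences of 3 lengths. The shortest has 1173 bases (XP_026299322.1, 390 residues from its length). The sequences NP_001014992.2 and XP_026299321.1 both have 1392 bases (463 residues). The longest, XP_026299319.1 and XP_026299320.1, both have 1716 bases (571 residues). Within each of those pairs the estimated counts were equal in both libraries, so the files do not tell the members of a pair apart and each pair is given as a sum.

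The 1716-base pair of Ip3k held 15657 counts in the adult library, against 961 in the larval library. Per length it was the highest in the adult library, at 433 TPM, and stood at 22.0 TPM in the larval library. It was 13.4-fold higher by CPM (12.5 to 14.3). The 1392-base pair held 5677 adult and 197 larval counts, or 202 TPM in adult and 5.83 TPM in larval hemocytes. This pair showed the widest difference of the gene, 23.6-fold by CPM (20.5 to 27.4). The 1173-base sequence held 4533 adult and 808 larval counts, or 200.1 TPM in adult and 29.9 TPM in larval hemocytes. Its difference was the narrowest, 4.60-fold (4.27 to 4.97). The intervals of the 3 lengths did not overlap, but they leave out the error of dividing reads among the sequences.

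The make-up of Ip3k counts therefore differed between the libraries. The 1173-base sequence took 17.5% of the gene's counts in the adult library (17.1 to 18.0) and 41.1% in the larval library (38.9 to 43.3). The 1392-base pair took 21.9% in adult (21.4 to 22.5) and 10.02% in larval hemocytes (8.73 to 11.4). The 1716-base pair took 60.5% in adult (59.9 to 61.1) and 48.9% in larval hemocytes (46.6 to 51.1). As a share of TPM, the 1173-base sequence made up 24.0% of Ip3k in adult and 51.7% in larval hemocytes, so per length it outweighed the 1716-base pair (38.2%) in the larval library. By counts the 1716-base pair led in both libraries. Counted singly, the 1173-base sequence had 808 larval counts against 480 for each 1716-base sequence. Those 480 counts are an equal division within a pair that the files do not tell apart, so no lead is read from them.

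**Figure D2:**
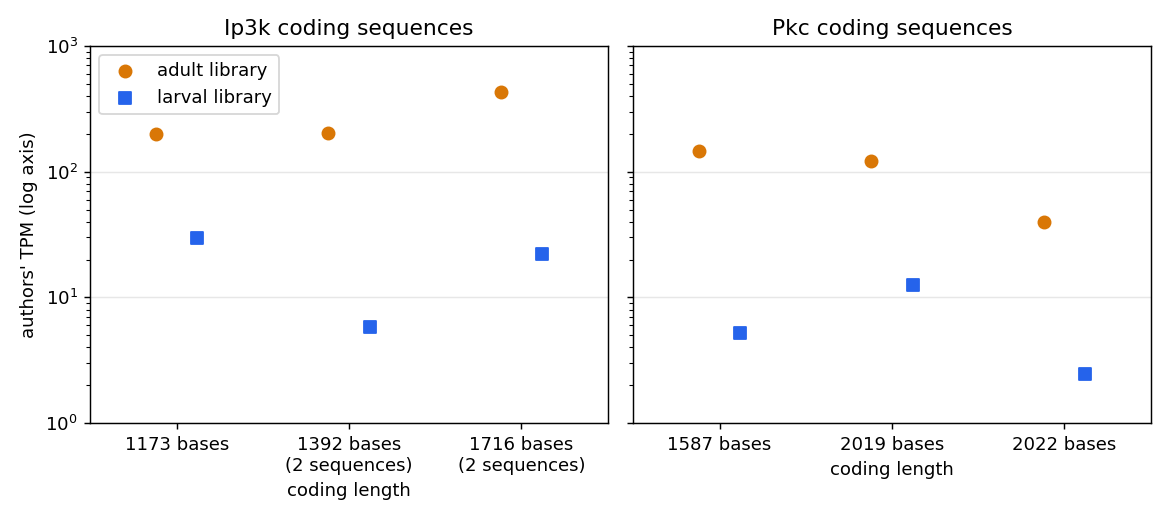
The authors' TPM (log axis) of each coding sequence of Ip3k and Pkc, grouped by coding length, in the adult library (circles) and the larval library (squares), with 1 library each and equal pairs summed. All adult points lie above their larval partners, and the gap is narrowest for the 1173-base sequence of Ip3k (200.1 TPM in adult and 29.9 TPM in larval hemocytes).

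Pkc has coding sequences of 2022 bases (NP_001128420.1, 673 residues from its length), 2019 bases (XP_006570331.1, 672 residues) and 1587 bases (XP_016770146.1, 528 residues). The 1587-base sequence held 4773 counts in the adult library, against 206 in the larval library. It had the widest difference of the gene, 19.0-fold by CPM (16.5 to 22.0), at 145 TPM in adult and 5.19 TPM in larval hemocytes. The 2019-base sequence held 5309 adult and 665 larval counts, or 121 TPM in adult and 12.6 TPM in larval hemocytes. Its difference was the narrowest, 6.55-fold (6.05 to 7.12). The 2022-base sequence, which is 3 bases longer, held 1737 adult and 131 larval counts and was 10.8-fold higher (9.11 to 13.1). It stood at 39.6 TPM in adult and 2.47 TPM in larval hemocytes. Its interval does not cover the error of dividing reads between sequences so close in length.

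In Pkc the shorter sequence took a larger part of the adult counts, the opposite of Ip3k. The 1587-base sequence had 40.4% of Pkc counts in the adult library (39.5 to 41.3) and 20.6% in the larval library (18.1 to 23.2). The 2019-base sequence had 44.9% in adult (44.0 to 45.8) and 66.4% in larval hemocytes (63.4 to 69.4). The 2022-base sequence had 14.7% in adult (14.1 to 15.3) and 13.1% in larval hemocytes (11.1 to 15.3), and those intervals overlap. By counts the 2019-base sequence led in both libraries. Per length the 1587-base sequence led in the adult library, with 47.3% of the gene's TPM, and the 2019-base sequence in the larval library, with 62.2%.

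**Figure D3:**
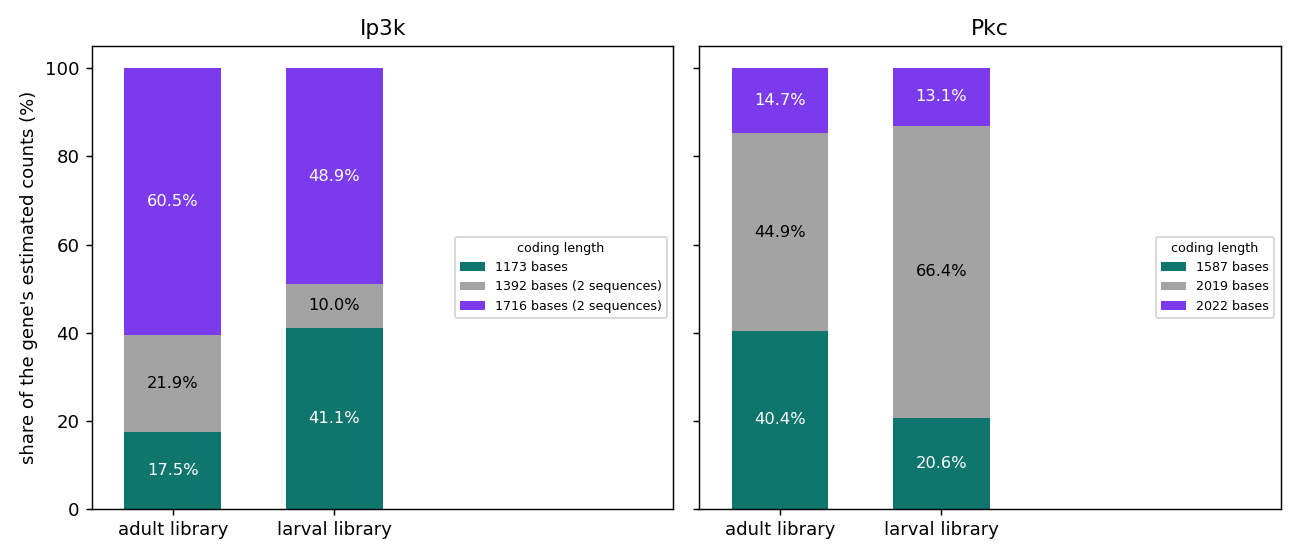
Share of each gene's estimated counts (vertical axis, percent) by coding length in the adult library (left bar) and the larval library (right bar), with 1 library each. The shortest Ip3k sequence holds 17.5% in adult and 41.1% in larval hemocytes, while the shortest Pkc sequence holds 40.4% in adult and 20.6% in larval hemocytes.

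These shares rest on how kallisto divides reads among overlapping sequences. None of the 8 coding sequences had a whole-number estimate in either library, at a tolerance of 0.001. Summed to the gene, the estimates came within 0.03 of a whole number for both genes in both libraries, as when reads are divided only within a gene. Neither the binomial intervals of the shares nor the fold intervals of the coding sequences cover the error of that division. The effective length that kallisto used was 265 bases below the coding length in the adult library and 282 bases below it in the larval library. That difference acts on TPM and was not tested as a part of the shifts.

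The shift of a gene's make-up was measured, in percentage points, as the difference in share summed over the sequences with the larger share in the adult library. It was 23.6 points for Ip3k and 21.5 points for Pkc. Over 2688 genes with at least 2 distinguishable coding sequences and 100 counts in each library, the median was 7.14 points (quartiles 2.14 and 17.2). Sequences without counts in either library were included as distinguishable, which fixed the shift of some genes at 0. Those genes lower the median and the percentages that follow. A larger shift than that of Ip3k was found in 447 of those genes (16.6%), and a larger one than that of Pkc in 515 (19.2%). Among 144 genes with at least as many counts as Pkc, the median was 8.56 points, with 23 genes above Ip3k and 27 above Pkc. Both shifts thus lay above the upper quartile. The leading sequence by counts, with equal ones pooled, differed between the libraries in 376 of the 2688 genes (14.0%), and Ip3k and Pkc were not among them.

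**Figure D4:**
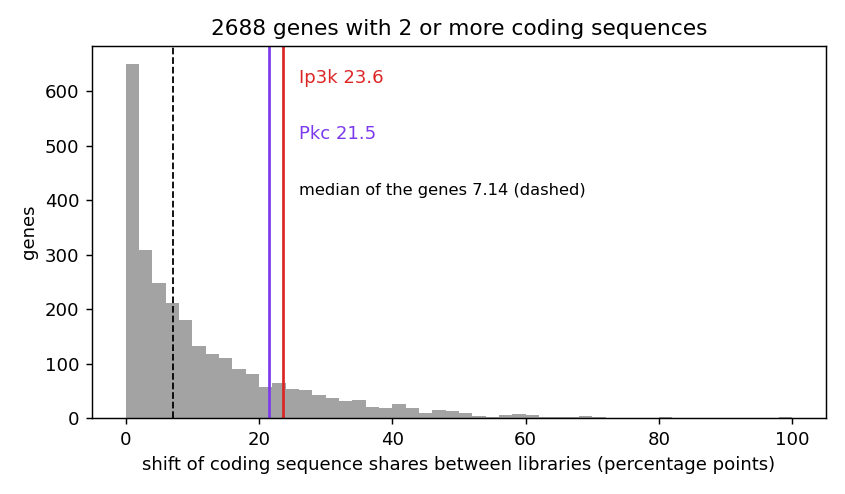
Number of genes (vertical axis) by the shift of coding sequence shares between the adult and larval libraries (horizontal axis, percentage points), over 2688 genes, with Ip3k at 23.6, Pkc at 21.5 and the median at 7.14. Both genes lie in the right shoulder, and 447 genes lie beyond Ip3k.

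Few other genes of the pathway carry a symbol. The lists drawn up for it were broad and also held related kinases and receptors, such as For and Dop1. Of these lists, 13 genes besides the members were in the gene table and 10 had enough counts to compare. On the adult side 0 met the size rule, and on the larval side 1 did, beside 3.14% and 2.72% of all compared genes. With 10 genes, those shares correspond to less than 1 gene on each side. The median log2 fold of the 10 was 0.65. No phospholipase C, inositol trisphosphate receptor or diacylglycerol kinase has a symbol in that table, so those steps of the pathway were not analysed here.

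Among enzymes, For, the cGMP-dependent protein kinase of the foraging gene, was the other kinase of the protein kinase C list. It reached 844 CPM in adult and 402 CPM in larval hemocytes, 2.10-fold higher (2.04 to 2.16). On the TPM scale For stood at 335 in the adult library, close to the 306 of Pkc, and at 107 in the larval library, where Pkc had 20.2.

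Of the 19 entries of the calcium signalling list, 2 genes were found by symbol, and both were at low levels. Camkii, the calcium and calmodulin-dependent kinase, stood at 9.40 CPM in adult and 12.7 CPM in larval hemocytes, a log2 fold of -0.43. By TPM (5.44 in adult and 4.85 in larval hemocytes) its log2 fold lay above 0. It was still below 0.55, the TPM median over all compared genes. Cac, a voltage-gated calcium channel subunit, stood at 4.04 CPM in adult and 3.00 CPM in larval hemocytes, with an interval of the fold that includes 1 (0.924 to 1.98).

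Receptors of the upstream list, not all of which act through phospholipase C, lay on both sides. Oa1, an octopamine receptor that raises calcium, was the gene past the size rule: it had 18 counts (0.945 CPM) in the adult and 430 counts (27.5 CPM) in the larval library, 28.3-fold higher in the larval library (18.2 to 49.6). Dop1, a dopamine receptor coupled to cyclic AMP, had 12.3 CPM in adult and 22.3 CPM in larval hemocytes. The serotonin receptor 5-HT2alpha, of the class that signals through phospholipase C, had 80 counts (4.20 CPM) in the adult and 17 counts (1.09 CPM) in the larval library, 3.78-fold higher (2.27 to 6.96). 5-HT1, another serotonin receptor, had 17.3 CPM in adult and 7.10 CPM in larval hemocytes, and Akhr, the adipokinetic hormone receptor, 7.82 and 2.56 CPM. The receptors 5-HT2beta, DopR2, Dop3 and 5-ht7, named after their values were seen, had at most 14 counts in either library.

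The genes with a symbol closest to each member were sought by distance in log2 CPM over the 2 libraries. For Ip3k they were Syt1 at a distance of 1.01, CYP6AQ1, a cytochrome P450, at 1.37, and Syt20, another synaptotagmin, at 1.81. For Pkc they were CYP6AQ1 at 0.20, Syt20 at 0.35 and Tpx-4, a thioredoxin peroxidase, at 1.05. CYP6AQ1 stood at 618 CPM in adult and 73.6 CPM in larval hemocytes. Per length it had 375 TPM in adult and 31.3 TPM in larval hemocytes, above the 306 and 20.2 TPM of Pkc. Syt20 had 347 TPM in adult and 29.9 TPM in larval hemocytes. The distances rest on 1 value per library.

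Markers of other cell types were read beside the members. PPO, the prophenoloxidase of hemocytes and the 1 hemocyte marker of 10 found by symbol, stood at 14041 CPM in adult and 28019 CPM in larval hemocytes. Of 13 neuronal markers 4 were found, summing to 1187 CPM in adult and 316 CPM in larval hemocytes. Most of that was Syt1, at 1094 CPM in adult and 244 CPM in larval hemocytes, and Syx1A, a syntaxin of membrane fusion, had 88.4 and 57.0 CPM. Nrx-1, a neurexin of synaptic adhesion, was lower in the adult library, at 3.31 against 14.4 CPM. Brp, spelled brp in the table and known from the synaptic active zone in Drosophila, had 26 counts in adult against 0 in larval hemocytes. Photoreceptor markers (4 of 11 found) summed to 97.9 CPM in adult and 44.0 CPM in larval hemocytes, led by the ultraviolet opsin Uvop at 93.1 and 40.5 CPM, with the blue opsin Blop at 3.88 and 3.20 CPM. The other 2, Lop2 and Lop1, had 13 and 4 adult counts, against 4 and 0 larval counts.

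Muscle markers (7 of 13 found), led by the troponin genes TpnCI, TpnT and TpnI, summed to 29.3 CPM in adult and 43.1 CPM in larval hemocytes, while their TPM summed to 90.3 in adult and 84.7 in larval hemocytes. The 7 fat body markers, led by the storage protein genes Hex110, HEX70b and Hex70c, summed to 189.8 CPM in adult and 6888 CPM in larval hemocytes. Of these 7, 5 met the size rule on the larval side and 1 on the adult side, beside 2.72% and 3.14% of all compared genes. That 1 was Vg, the egg yolk precursor vitellogenin, which is named here after its values were seen. It had 2280 counts (119.7 CPM) in the adult and 5 counts (0.320 CPM) in the larval library, 340-fold higher (160.2 to 1154), and made up most of the adult fat body sum. The neuronal and photoreceptor sums were thus higher in the adult library, as the members were, although Nrx-1 was lower. The fat body sum was lower although Vg was higher, and the side of the muscle sum depends on the scale. Over all compared genes the median log2 fold was 0.02 by CPM and 0.55 by TPM, so the 2 scales differ in their midpoint. PPO, the hemocyte marker, was also lower in the adult library, at 14041 against 28019 CPM. The part of other cell types in the levels of Ip3k and Pkc was not tested.

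Ip3k and Pkc lie on the same linkage group of assembly Amel_HAv3.1, LG11, with 92 genes of the files between them. Of those, 88 were compared: 4 (4.55%) met the size rule as higher in adult hemocytes and 4 as higher in larval hemocytes. The median log2 fold over the 88 genes was -0.04, or 0.31 with plain totals. On the whole linkage group 25 of 750 compared genes (3.33%) met it on the adult side. The adult-side genes in between were LOC552804, LOC100577623, LOC552459 and LOC413097, named after their values were seen. LOC100577623, at 830 CPM in adult and 80.3 CPM in larval hemocytes, had a log2 fold of 3.37, next to the 3.28 of Pkc.

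The direct neighbours of the members differed. LOC113219121, next to Ip3k on 1 side, stood at 174 CPM in adult and 26.7 CPM in larval hemocytes, a log2 fold of 2.70, past the size rule. NFRKB, on the other side of Ip3k, had 176 CPM in adult and 149 CPM in larval hemocytes (log2 fold 0.24). Beside Pkc, LOC410272 had a log2 fold of 1.30 and LOC410271 one of 1.40, and neither met the rule. LOC410271 had 3319 TPM in adult and 854 TPM in larval hemocytes, far above the 306 and 20.2 TPM of Pkc. The labels do not say whether strand was used in counting.

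**Figure D5:**
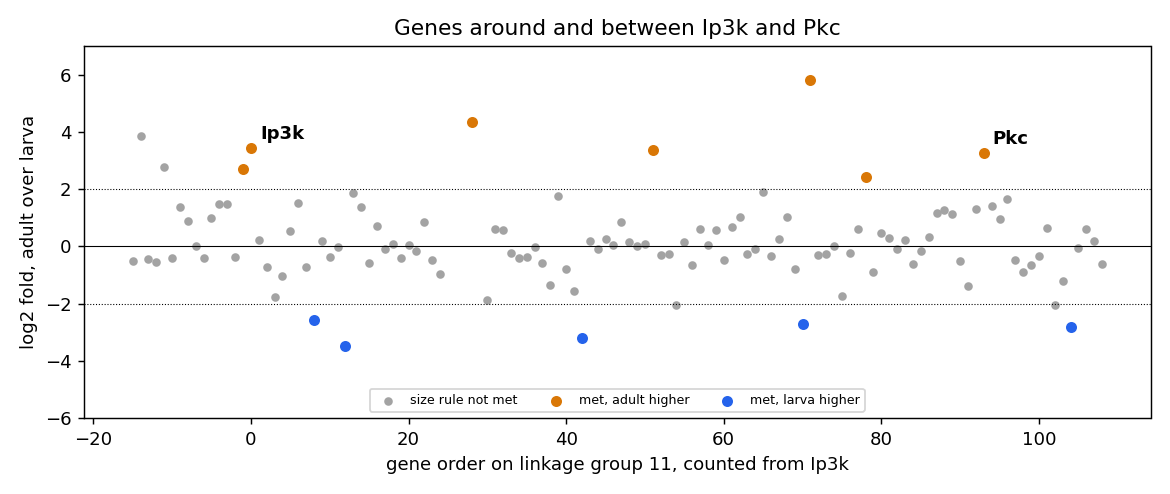
Log2 fold of adult over larva (vertical axis) for compared genes in their order on linkage group 11, counted from Ip3k (horizontal axis), with the 4-fold lines dotted. Between Ip3k (3.43) and Pkc (3.28), 4 genes met the size rule as higher in adult hemocytes and 4 as higher in larval hemocytes.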

How the data were processed

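RNA was measured in 1 adult and 1 larval hemocyte library with read pairs of 150 bases per end, per the labels' protocols. The authors deposited estimated counts and TPM per RefSeq coding sequence, and the submitters' processing notes name kallisto. Version, index and genome build are not stated there. In the deposited files TPM summed to 1000000 in each library.

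Estimated counts were summed to genes through protein identifiers (all 23471 matched a gene of Amel_HAv3.1) and rounded. TMM factors, from edgeR 4.0.16 in R 4.3.3, were 1.13 (adult) and 0.886 (larva). Log2 folds used a prior of 0.5 counts. Intervals are Clopper-Pearson for folds and shares and Poisson for levels. The calculation was tested on simulated counts that held counting error only. That test does not cover spread between libraries, PCR copies or the division of reads among coding sequences. DESeq2 1.42.0 size factors, plain totals, TPM, other priors, count minimums and size rules were alternatives.

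The members and lists were chosen with earlier results of these data known. Named are the members, pathway genes past the size rule or among the 5 of a list with the highest mean CPM, the 3 markers of a list with the highest mean CPM, and the 3 nearest genes with a symbol. The markers Vg, brp and Lop1 were named after their values were seen. List genes were assigned by symbol, since no product descriptions were used here. No sequence is printed. A list gene that the rule selects is not reported here.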

Additional observations from a re-analysis of the deposited data

How the results depend on the processing

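With 1 library per stage no library could be left out. No paired analysis was possible because each stage has 1 library. Of 53 values under the alternatives, 35 moved by less than their counting interval (counts of genes: 1.5 times) and 18 moved by more. A change of sign was looked for only in the folds of the members, and 0 of them changed. Ip3k and Pkc met the 4-fold size rule under each alternative scaling, prior and count minimum, by TPM and from the coding sequence with the most counts. The 2-fold and 8-fold rules were applied with the other choices as reported, and both genes met them. These calls are no test, because the members were chosen as far higher in the adult library. By TPM the rule was applied to them without an interval. The log2 fold of Ip3k was 3.78 with plain totals, 3.85 with TPM and 3.76 from the coding sequence with the most counts. That of Pkc was 3.63 with plain totals, 3.92 with TPM and 2.73 from the coding sequence with the most counts. The adult and larval gene counts were 560 and 142 with TPM, where no interval was used. A 2-fold rule gave 879 and 931 genes and an 8-fold rule 120 and 86, both by construction. By TPM the ranks of Ip3k were 207 (adult) and 2113 (larva) and those of Pkc 527 and 4175. By TPM the share of the 1173-base Ip3k sequence was lower in the adult library by a difference of -27.7 points, against -23.6 by counts, and the pathway median was 1.11. Counting error limits the low genes, such as Lop1, DopR2 and Dop3.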

Other observations

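Without the limit to genes with a symbol, closer partners to the members were found, and these are named after their values were seen. LOC410621 lay nearest to Ip3k, at a distance of 0.17 in log2 CPM, with 1269 CPM in adult and 114 CPM in larval hemocytes. LOC408666 followed at 0.40, with 1333 CPM in adult and 166 CPM in larval hemocytes. Near Pkc, LOC726476 stood at 721 CPM in adult and 69.7 CPM in larval hemocytes, at a distance of 0.25, behind CYP6AQ1 at 0.20. The gene table gives these genes a locus number only.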
